A study of Mus musculus with 8 samples.

Results

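The Nogo receptor genes Rtn4r, Rtn4rl1 and Rtn4rl2, the LINGO genes Lingo1, Lingo2, Lingo3 and Lingo4, and the myelin ligand genes Rtn4, Mag and Omg were described in mouse brain. These 10 genes were selected by their symbols in the deposited table, where they take up 11 of 17613 rows, because Lingo2 is listed under a pair of identifiers. They were chosen from a series whose difference between groups was already known, so their own differences below are descriptions of the fit across all genes and not tests. The series holds 8 polyadenylated RNA libraries from brains of C57BL/6 mice, 4 labelled Uhrf2 knockout (KO) and 4 labelled wild type (WT). The product of Uhrf2 recognises modified cytosine, and the title of the series ties its loss to methylation and seizures. The labels give neither the age nor the sex of the mice, nor the deleted part of the gene, nor whether each library came from its own animal, so that p-values measure the spread between these libraries, which may be technical.

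Axons in the adult central nervous system regrow poorly, and part of this limit lies in proteins of the myelin sheath. The reticulon Nogo (Rtn4), the myelin-associated glycoprotein (Mag) and the oligodendrocyte myelin glycoprotein (Omg) bind Nogo receptors, leucine-rich repeat proteins that are anchored to the outer membrane by a lipid and lack a part inside the cell. The receptors therefore signal through partners that cross the membrane, among them LINGO1, the receptor Ngfr and its relative Tnfrsf19, which activate the small GTPase RHOA and stop the growth cone. In uninjured brain, Nogo receptors are found on neurons and limit the plasticity of dendritic spines and synapses.

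Of the 10 genes, 4 stood higher in the libraries labelled KO and 6 did not differ past the threshold. The receptor gene Rtn4rl2 differed most, at 1.93-fold, followed by Lingo1 at 1.48-fold, the receptor gene Rtn4rl1 at 1.43-fold and Lingo3 at 1.29-fold. The founding receptor gene Rtn4r, the LINGO genes Lingo2 and Lingo4 and all 3 ligand genes had overlapping values in the 2 groups. All 10 genes passed the filter on low counts. In the fit of 15902 genes with edgeR's quasi-likelihood test, 228 genes (1.43%) passed an adjusted p of 0.05, of which 182 (1.14%) were higher and 46 (0.289%) lower where the label was KO. The 4 genes named above were among the higher ones, and 0 of the 10 were among the lower ones. At an unadjusted p under 0.05, 5 of the 10 were higher, the fifth being Rtn4r, and 0 were lower. The share of all tested genes at that unadjusted level is not given here. Counts at that level, here and for the lists below, therefore have no rate over all genes beside them. DESeq2 called 0 of the 10 lower. In the same 4 genes the lowest KO library lay above the highest WT library, a pattern that 4.28% of all tested genes showed. Of the 10 genes, 8 had log2 fold changes above 0 (median 0.12), as had 48.0% of all tested genes (median -0.005). Since the genes were proposed with this contrast known, the counts were not read against those shares.

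**Figure D1:**
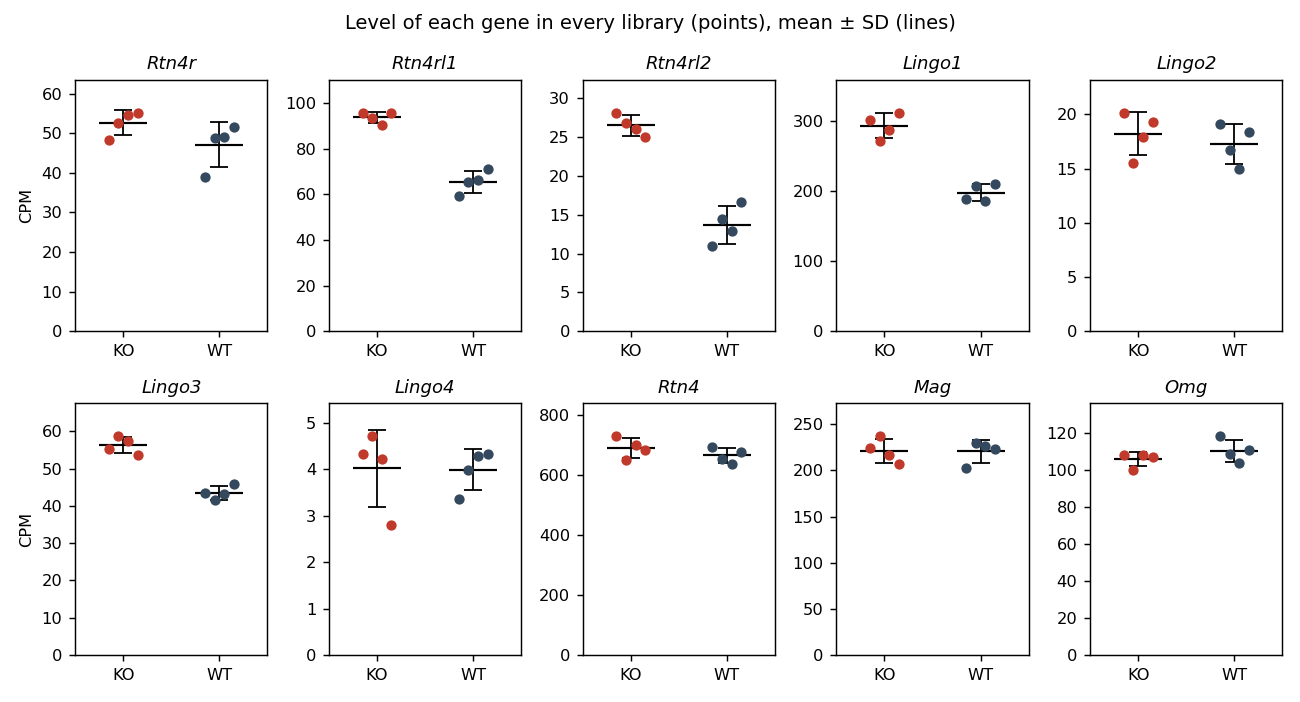
Level in CPM (counts scaled to library size, vertical axis from 0) of each of the 10 genes in every library, KO left and WT right, with points for libraries and lines for the mean ± SD of 4. The KO and WT points are apart in Rtn4rl1, Rtn4rl2, Lingo1 and Lingo3 and overlap in the other panels.

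The libraries held between 11891350 and 19773921 counts, so that 3 counts correspond to between 0.15 and 0.252 CPM. The targeted gene went against its label. Uhrf2 stood at 86.4, 88.6, 88.4 and 91.8 CPM in the libraries labelled KO, against 58.0, 47.7, 57.2 and 58.9 CPM in those labelled WT, 1.60-fold higher (exact two-sided permutation test, p = 0.0286, the smallest that 4 against 4 can give). Counts per gene do not show which exons were read. The libraries are called by their labels throughout, and each direction rests on those labels. In RNA from a whole tissue, fewer cells of a type and less RNA per cell cannot be told apart.

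Because the title of the series concerns cytosine methylation, the promoters of the genes are shown for their CpG sites, the dinucleotide that carries most methylated cytosine in mammals. The sequences are from RefSeq on GRCm38.p6 and run from 250 bases before to 50 bases after the start furthest upstream. Entries were found for 8 of the 10 genes, the others being Rtn4rl1 and Omg. Shown are 3 genes that were higher in the libraries labelled KO, then the related receptor gene Rtn4r and the ligand gene Mag, which were not. Rtn4rl2 lies at chr2:84886643-84886942 on the minus strand, Lingo1 at chr9:56796261-56796560 on the minus strand, Lingo3 at chr10:80843990-80844289 on the minus strand, Rtn4r at chr16:18127392-18127691 on the plus strand and Mag at chr7:30914873-30915172 on the minus strand. Capitals mark each CpG, and every sequence is read along the strand of its gene.
Rtn4rl2: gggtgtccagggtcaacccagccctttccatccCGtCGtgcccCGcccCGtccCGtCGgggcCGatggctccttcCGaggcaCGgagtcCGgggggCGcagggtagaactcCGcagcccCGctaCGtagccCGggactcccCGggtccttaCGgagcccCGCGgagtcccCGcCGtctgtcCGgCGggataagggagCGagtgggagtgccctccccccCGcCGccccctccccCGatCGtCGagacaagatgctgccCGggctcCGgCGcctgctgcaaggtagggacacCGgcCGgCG
Lingo1: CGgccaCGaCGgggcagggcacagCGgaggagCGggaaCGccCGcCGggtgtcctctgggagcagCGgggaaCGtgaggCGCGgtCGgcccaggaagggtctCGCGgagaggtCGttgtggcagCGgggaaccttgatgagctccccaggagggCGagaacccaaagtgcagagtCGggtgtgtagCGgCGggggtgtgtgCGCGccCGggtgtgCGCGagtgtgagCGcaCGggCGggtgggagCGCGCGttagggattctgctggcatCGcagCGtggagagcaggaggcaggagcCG
Lingo3: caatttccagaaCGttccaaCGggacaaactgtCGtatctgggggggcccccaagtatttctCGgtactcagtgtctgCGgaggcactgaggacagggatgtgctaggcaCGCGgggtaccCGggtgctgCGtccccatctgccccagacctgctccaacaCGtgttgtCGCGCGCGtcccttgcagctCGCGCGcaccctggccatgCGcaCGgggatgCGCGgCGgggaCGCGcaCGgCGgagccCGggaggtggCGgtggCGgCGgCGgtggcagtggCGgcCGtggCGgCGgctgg
Rtn4r: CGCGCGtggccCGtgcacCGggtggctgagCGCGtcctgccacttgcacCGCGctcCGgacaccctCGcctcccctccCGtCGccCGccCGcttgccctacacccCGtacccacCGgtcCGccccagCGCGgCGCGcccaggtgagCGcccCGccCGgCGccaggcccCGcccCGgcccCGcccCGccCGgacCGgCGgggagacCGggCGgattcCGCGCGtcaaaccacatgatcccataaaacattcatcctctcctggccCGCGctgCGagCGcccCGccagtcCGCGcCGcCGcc
Mag: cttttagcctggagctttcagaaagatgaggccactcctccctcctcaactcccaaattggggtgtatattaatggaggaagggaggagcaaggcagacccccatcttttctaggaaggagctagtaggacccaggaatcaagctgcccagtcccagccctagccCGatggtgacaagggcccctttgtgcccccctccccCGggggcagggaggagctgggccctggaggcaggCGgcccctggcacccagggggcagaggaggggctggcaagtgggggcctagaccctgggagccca

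The windows of Rtn4rl2, Lingo1 and Lingo3 held 35 CpG sites each, a number that 6.95% of 32851 promoter windows of this length reached. The window of Rtn4r held 47, reached by 1.44% of windows, and that of Mag held 3, reached by 76.7%. The median over all windows was 7 sites. Among the genes not printed, Lingo4 had 8 sites, the window of Lingo2 furthest upstream had 0 and that of Rtn4 had 15, with 35 and 1 at its other starts. High CpG content was therefore found in the promoters of 3 genes that stood higher in the libraries labelled KO and also in that of Rtn4r, which did not pass the threshold. The GC box, written GGGCGG and searched on both strands, overlaps a CpG by its own letters and is found in 35.7% of all windows. It occurred 7 times in Rtn4r, 2 times in Rtn4rl2, once in Lingo1 and not in the upstream windows of Lingo3 or Mag.

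The largest of the differences was that of a receptor gene. Rtn4rl2 (ENSMUSG00000050896, chromosome 2 from 84871924 to 84886710, minus strand, GRCm38, GENCODE M21) encodes the receptor also called NgR2, which binds Mag. It was at 28.2, 26.9, 26.1 and 24.98 CPM in the libraries labelled KO, against 10.9, 14.5, 12.9 and 16.7 CPM in those labelled WT. The KO libraries lay close together and all stood above the highest WT library, while the WT libraries spread more widely, the coefficient of variation being 5.08% in KO and 17.8% in WT. The log2 fold change was 0.94 (SE 0.09).

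Rtn4rl1 (ENSMUSG00000045287, chromosome 11 from 75193783 to 75267769, plus strand) encodes the receptor also called NgR3, which binds chondroitin sulfate proteoglycans. Its level was 95.7, 93.2, 90.4 and 95.4 CPM in the libraries labelled KO, against 59.0, 65.3, 66.1 and 71.1 CPM in those labelled WT. Each KO library was above each WT library, and the log2 fold change was 0.52 (SE 0.05). Rtn4r (ENSMUSG00000043811, chromosome 16 from 18127642 to 18152408, plus strand) encodes NgR1, the receptor to which all 3 myelin ligands bind. It was at 48.4, 52.5, 54.6 and 55.2 CPM in the libraries labelled KO, against 38.9, 48.8, 49.0 and 51.6 CPM in those labelled WT. The groups overlapped, with WT replicate 1 the lowest of all 8 libraries, and the log2 fold change was 0.16 (SE 0.07). Without WT replicate 1 it was 0.09.

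WT replicate 1 was also the lowest library for Rtn4rl1 and Rtn4rl2. Without it their log2 fold changes were 0.48 and 0.86. The receptor genes thus differed in unequal measure. The ratio of Rtn4rl2 to Rtn4r within a library, both per kilobase of transcript, ran from 0.673 to 0.866 in the libraries labelled KO and from 0.391 to 0.481 in those labelled WT, with no overlap. That of Rtn4rl1 to Rtn4r ran from 0.91 to 1.09 in KO and from 0.735 to 0.835 in WT, again with none.

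Summed per kilobase, the 3 receptor genes came to 74.1 ± 0.43 CPM per kilobase in the libraries labelled KO and 53.4 ± 6.01 in those labelled WT (SD, n = 4 each). Of that sum, Rtn4rl2 made up 27.5 ± 1.52% in KO and 19.7 ± 1.49% in WT, and Rtn4r made up 36.7 ± 2.02% in KO and 45.5 ± 1.18% in WT. The share of Rtn4rl1 was 35.9 ± 0.89% in KO and 34.9 ± 1.54% in WT, a difference within the spread of the libraries. Within a library, the receptor gene with the highest level per length was Rtn4r in all 4 WT libraries. In KO it was Rtn4rl1 in replicate 1 (36.8% of the sum against 33.9% for Rtn4r) and Rtn4r in the other libraries. Between libraries, the ranges of Rtn4r and Rtn4rl1 overlapped in both groups. Their levels were 27.2 ± 1.59 and 26.6 ± 0.70 CPM per kilobase in KO, and 24.3 ± 2.91 and 18.5 ± 1.40 in WT.

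**Figure D2:**
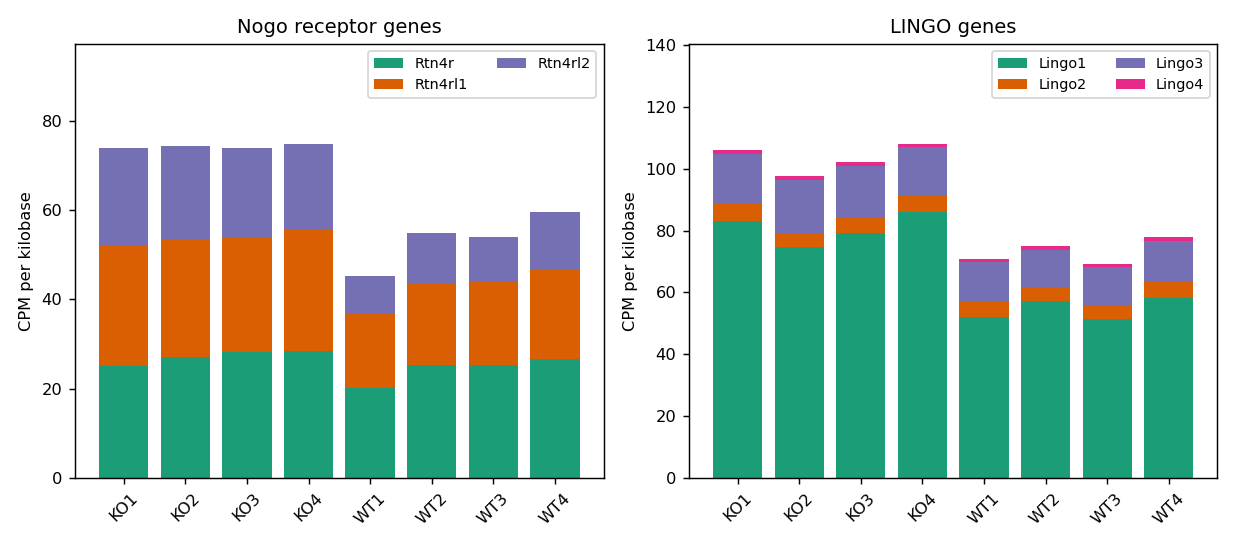
Summed level of the Nogo receptor genes (left) and of the LINGO genes (right) in CPM per kilobase of the longest protein-coding transcript, 1 bar per library, KO libraries first, with colours for genes. The receptor bars reach 73.8 to 74.7 in KO and 45.2 to 59.6 in WT, and the LINGO bars 97.5 to 107.9 in KO and 69.3 to 77.9 in WT.

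Among the LINGO genes, Lingo1 and Lingo3 were higher in the libraries labelled KO. Lingo1 (ENSMUSG00000049556, chromosome 9 from 56618475 to 56796468, minus strand) encodes the signalling partner of Nogo receptors and also holds back the maturation of oligodendrocytes. Its level was 301.6, 271.3, 287.5 and 312.4 CPM in the libraries labelled KO, against 188.3, 207.1, 186.3 and 210.9 CPM in those labelled WT. The groups were far apart beside their spread, and the log2 fold change was 0.57 (SE 0.05). Lingo3 (ENSMUSG00000051067, chromosome 10 from 80832801 to 80844039, minus strand) encodes a paralogue that is less well studied. It was at 55.3, 58.7, 57.5 and 53.8 CPM in the libraries labelled KO, against 43.6, 41.5, 43.2 and 46.0 CPM in those labelled WT. No KO library fell within the WT range, and the log2 fold change was 0.37 (SE 0.05).

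Lingo2 (ENSMUSG00000045083, chromosome 4 from 35706647 to 36951747, minus strand), a paralogue with a very long gene, was at 20.2, 15.5, 17.9 and 19.3 CPM in the libraries labelled KO, against 19.1, 16.7, 14.99 and 18.3 CPM in those labelled WT. The groups covered nearly the same range, and the log2 fold change was 0.09 (SE 0.09). MicroRNA genes, pseudogenes and an snRNA gene overlap the span of Lingo2, some of them on the opposite strand. The table carries the name Lingo2 on another row (ENSMUSG00000052961), which had between 0 and 9.73 counts in KO and between 3.69 and 10.8 counts in WT. That row did not pass the filter on low counts. Lingo4 (ENSMUSG00000044505, chromosome 3 from 94398517 to 94404501, plus strand) was the lowest of the 10 genes, at 4.33, 4.71, 4.23 and 2.80 CPM in KO and 3.36, 3.98, 4.30 and 4.34 CPM in WT. Its log2 fold change was -0.002 (SE 0.16), on 40 to 86 counts per library. An antisense gene overlaps the span of Lingo4, and no source used here states whether counting used the strand. Whether reads of the pair were kept apart is therefore not known.

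Lingo1 made up most of the summed LINGO level per kilobase, 78.1 ± 1.32% in the libraries labelled KO and 74.6 ± 1.24% in those labelled WT (SD, n = 4 each). Lingo3 made up 15.9 ± 1.34% in KO and 17.3 ± 0.91% in WT. These shares depend on the length used, here that of the longest transcript. With the median length, Lingo3 was at 30.4 CPM per kilobase in KO rather than 16.4, and Lingo1 at 96.5 rather than 80.8. The share of Lingo3 is then larger. The ratio of Lingo3 to Lingo1 per length overlapped between the groups, at 0.181 to 0.228 in KO and 0.211 to 0.245 in WT. The ratio of Lingo1 to Rtn4r did not, at 2.76 to 3.33 in KO and 2.03 to 2.59 in WT.

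None of the 3 ligand genes passed the threshold, by edgeR or by DESeq2, and none had an unadjusted p under 0.05. Rtn4 (ENSMUSG00000020458, chromosome 11 from 29692947 to 29744331, plus strand) encodes the Nogo proteins, a family of isoforms that counts per gene do not separate. It was at 730.6, 650.3, 701.1 and 683.4 CPM in the libraries labelled KO, against 695.4, 653.3, 638.1 and 679.4 CPM in those labelled WT. The ranges overlapped over most of their length, and the log2 fold change was 0.05 (SE 0.04). Part of Rtn4 overlaps Eml6 on the opposite strand.

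Mag (ENSMUSG00000036634, chromosome 7 from 30899176 to 30914873, minus strand) encodes an adhesion protein of the innermost myelin layer, next to the axon. It was at 224.6, 237.0, 216.8 and 206.4 CPM in the libraries labelled KO, against 203.1, 230.2, 226.1 and 222.8 CPM in those labelled WT. The groups interleaved, and the log2 fold change was 0.003 (SE 0.05). Omg (ENSMUSG00000049612, chromosome 11 from 79500982 to 79504084, minus strand) encodes a lipid-anchored glycoprotein made by oligodendrocytes and by neurons. It was at 108.4, 100.4, 108.3 and 107.4 CPM in KO and 118.5, 108.9, 103.8 and 110.9 CPM in WT. The groups overlapped, and the log2 fold change was -0.06 (SE 0.05). Omg lies within the span of Nf1, which runs on the opposite strand. Spans of whole genes were compared and not exons. Whether reads of the overlapping pair were mixed, here or in Rtn4, is therefore not known.

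**Figure D3:**
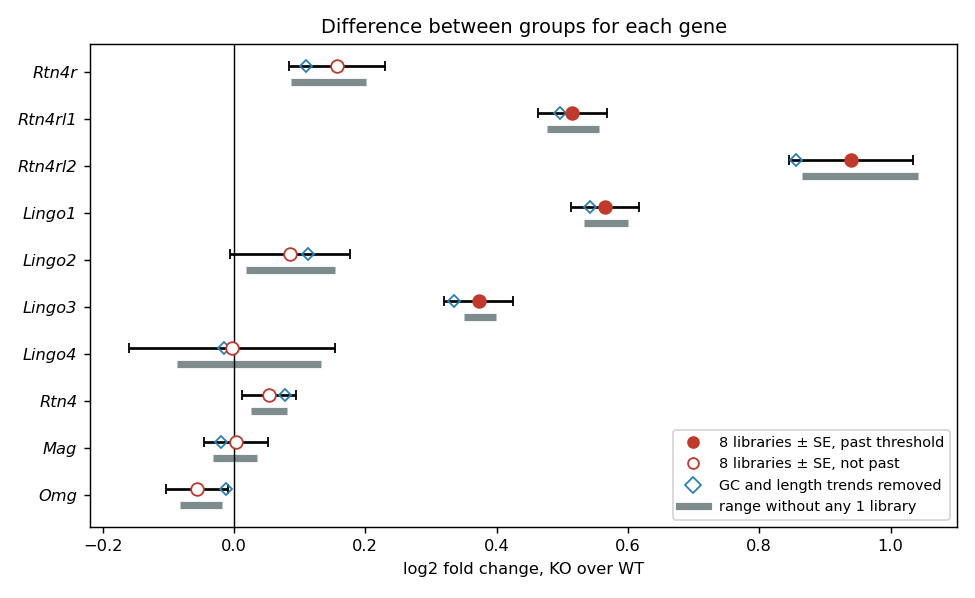
Log2 fold change of KO over WT for each gene, with circles for the fit of 8 libraries ± SE (filled where past the threshold), diamonds for the fit with GC content and length trends removed and grey bars for the range without any 1 library. Rtn4rl2, Lingo1, Rtn4rl1 and Lingo3 stand between 0.37 and 0.94, and the grey bars of Mag and Lingo4 include 0.

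Base composition can shift counts between libraries. The longest protein-coding transcript was 68.5% GC in Rtn4rl2, 61.1% in Lingo3, 58.0% in Lingo1 and 56.9% in Rtn4rl1. In the genes not past the threshold it was 62.8% in Rtn4r, 57.6% in Mag, 54.8% in Lingo4, 46.0% in Rtn4, 45.1% in Lingo2 and 41.7% in Omg. With trends of GC content and length removed, the log2 fold changes were 0.86 for Rtn4rl2, 0.54 for Lingo1, 0.50 for Rtn4rl1 and 0.33 for Lingo3, and 0.11 for Rtn4r. Each of the 4 passed the threshold in all 19 alternative fits, and the other 6 genes passed it in none. The alternatives included those without each of the 8 libraries in turn, where Rtn4rl2 ran from 0.86 to 1.04, Lingo1 from 0.53 to 0.60, Rtn4rl1 from 0.48 to 0.56 and Lingo3 from 0.35 to 0.40.

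Per kilobase, Rtn4 had the highest level of the 10 genes, at 149.7 ± 7.27 CPM per kilobase in KO and 144.3 ± 5.57 in WT (SD, n = 4 each), and Lingo4 the lowest, at 1.10 ± 0.23 in KO and 1.10 ± 0.12 in WT. In KO the order below Rtn4 was Mag, Lingo1, Omg, Rtn4r, Rtn4rl1, Rtn4rl2, Lingo3, Lingo2 and Lingo4. In WT it was the same except that Lingo3 came before Rtn4rl2. Neighbours whose libraries overlapped were Mag and Lingo1, and Rtn4r and Rtn4rl1, in KO, and Lingo1 and Omg, Rtn4r and Rtn4rl1, and Lingo3 and Rtn4rl2, in WT. Lingo1 stood at 80.8 ± 4.91 CPM per kilobase in KO and 54.6 ± 3.49 in WT, beside Mag at 90.9 ± 5.30 in KO and 90.6 ± 4.93 in WT. With the median length of the protein-coding transcripts in place of the longest, Lingo3 moved up to 30.4 in KO and 23.5 in WT, past Rtn4r in KO and past Rtn4rl1 in both.

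The wider pathway was read from 8 lists, written with earlier results of these data known. Of 82 tested genes, Crtac1 and Ptprf rose, Slitrk2 fell and 79 did not pass, 3.66% called (by the same edgeR fit, adjusted over all genes), against 1.43% of all tested genes that passed. Their median log2 fold change was 0.01, and that of all tested genes was -0.005. Crtac1 encodes a secreted protein also known as LOTUS, which binds the Nogo receptor NgR1 and blocks it. It was at 63.4 ± 3.41 CPM in the libraries labelled KO and 53.9 ± 1.77 CPM in those labelled WT (SD, n = 4 each), 1.18-fold higher in 4 of 4 KO libraries, with a log2 fold change of 0.24 (SE 0.05, adjusted p = 0.0225). Without KO replicate 3, KO replicate 4, WT replicate 1 or WT replicate 3 it missed the threshold (adjusted p of up to 0.105 over the 8 such fits). Among the other 10 binding partners of the receptors, 0 passed, and 3 of all 11 were higher and 0 lower at an unadjusted p under 0.05. Bai1, an adhesion receptor that binds Nogo receptors and was named after its values were seen, was at 500.6 ± 44.4 CPM in KO and 431.4 ± 33.1 CPM in WT (log2 fold change 0.21, SE 0.07, adjusted p = 0.181). Bai2, its paralogue, was at 375.1 ± 18.6 CPM in KO and 340.6 ± 11.1 CPM in WT (adjusted p = 0.128).

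Ptprf encodes the phosphatase LAR, a receptor of inhibitory proteoglycans. It was at 103.0 ± 2.78 CPM in the libraries labelled KO and 88.0 ± 4.03 CPM in those labelled WT (SD, n = 4 each), 1.17-fold higher in 4 of 4 KO libraries, with a log2 fold change of 0.23 (SE 0.05, adjusted p = 0.0121). Leaving out WT replicate 3 ended its call (adjusted p = 0.07), as did leaving out both libraries numbered 1 (adjusted p = 0.057). Of the other 6 proteoglycans and their receptors, 0 passed, and 3 of all 7 were higher and 0 lower at an unadjusted p under 0.05. Acan, the aggrecan of perineuronal nets, was at 11.8 ± 0.73 CPM in KO and 9.52 ± 1.28 CPM in WT (adjusted p = 0.181).

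Co-receptors and other receptors of the same ligands did not pass, with 0 of 6 past the threshold by edgeR or DESeq2 and 0 at an unadjusted p under 0.05. Pirb, also on that list, was not found under that name or as Lilrb3, so it was not examined. Ngfr was at 7.81 ± 1.2 CPM in KO and 6.99 ± 0.92 CPM in WT (adjusted p = 0.717), and S1pr2, a receptor for part of the Nogo protein, at 3.81 ± 0.47 CPM in KO and 3.11 ± 0.51 CPM in WT (adjusted p = 0.472). In the RHOA pathway 0 of 12 passed by edgeR or DESeq2, and 1 was lower at an unadjusted p under 0.05. This was the kinase Rock1, at 41.0 ± 1.60 CPM in KO and 46.5 ± 4.05 CPM in WT (adjusted p = 0.229), while Pak1 was at 476.5 ± 23.0 CPM in KO and 456.0 ± 16.1 CPM in WT (adjusted p = 0.563). LINGO1 partners had 0 of 7 past the threshold by either tool and 0 at an unadjusted p under 0.05. The kinase Wnk1 had a log2 fold change of -0.08 (SE 0.04) and the neurotrophin receptor Ntrk3 of 0.10 (SE 0.05). The list of other reticulons, which also held Arl6ip5, had 0 of 4 past the threshold by either tool. In that list 1 gene, Arl6ip5, was higher at an unadjusted p under 0.05. Arl6ip5 was at 123.3 ± 2.62 CPM in KO and 115.9 ± 4.81 CPM in WT (adjusted p = 0.391), and Rtn2 had a log2 fold change of 0.06 (SE 0.05).

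Other leucine-rich repeat membrane proteins of neurons, the structural relatives of the receptors and LINGO proteins, had 1 of 25 lower, 0 higher and 24 not past the threshold, and their log2 fold changes had a median of 0.01. At an unadjusted p under 0.05, 4 were higher and 2 lower. The one that fell was Slitrk2, a synaptic adhesion protein, at 32.9 ± 2.01 CPM in the libraries labelled KO and 39.5 ± 2.35 CPM in those labelled WT (SD, n = 4 each), lower in 4 of 4 KO libraries. Its log2 fold change was -0.26 (SE 0.06, adjusted p = 0.0416). It passed in 2 of the 8 fits without 1 library, those without KO replicate 4 or WT replicate 2, and had an adjusted p of up to 0.121 in the others. It also missed the threshold by limma-voom, with or without quality weights, after removal of trends of length and GC content, and when both libraries numbered 1 were left out (adjusted p of up to 0.187). Lrfn2 was at 20.5 ± 1.17 CPM in KO and 16.9 ± 1.72 CPM in WT (adjusted p = 0.0931).

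**Figure D4:**
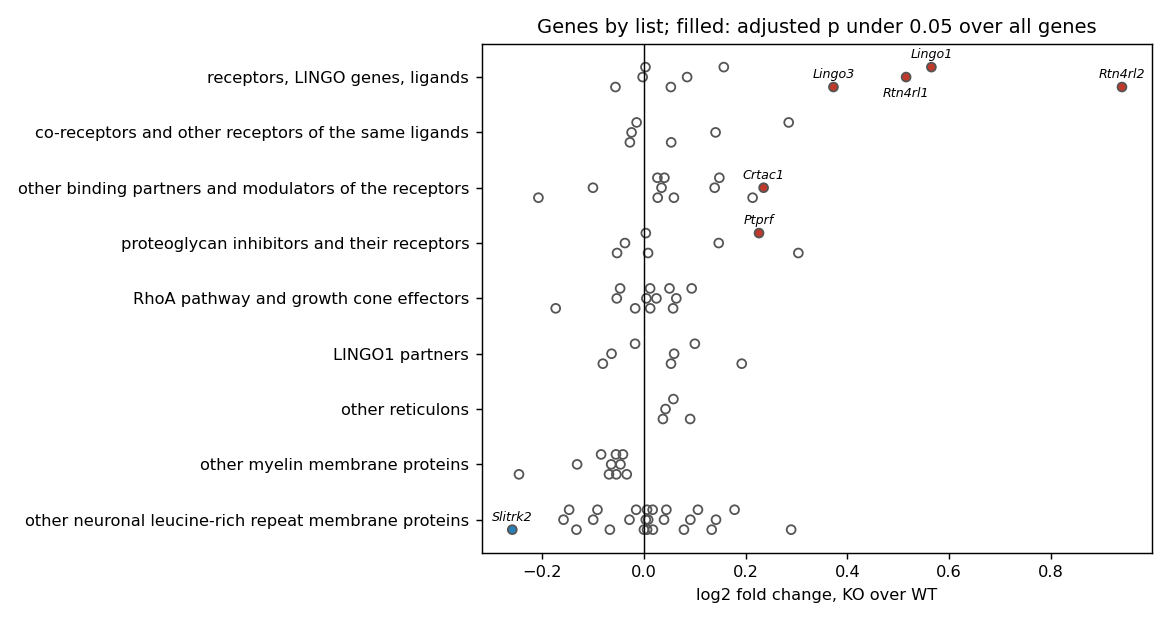
Log2 fold change of KO over WT (horizontal axis) for the 10 genes (top row) and for the 82 tested genes of 8 pathway lists, 1 point per gene, filled where the adjusted p over all genes was under 0.05. In the lists the filled points are Crtac1, Ptprf and Slitrk2, all within 0.26 of 0, and the 10 points of the myelin list lie below 0.

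The ligand gene Mag is made by oligodendrocytes, so its level was set beside other myelin genes. Of 10 other genes of myelin membrane proteins, 0 passed the threshold by edgeR or DESeq2, 2 were lower at an unadjusted p under 0.05 and all 10 had log2 fold changes below 0 (median -0.06). Gjc3, a connexin of oligodendrocytes, was at 71.1 ± 5.06 CPM in KO and 78.0 ± 5.67 CPM in WT (adjusted p = 0.358). The 10 oligodendrocyte markers, which share 9 genes with that list, summed to between 7033 and 7934 CPM in KO and between 7548 and 7874 CPM in WT. Of these 0 passed, and Tspan2, the one outside the list, was at 132.5 ± 3.86 CPM in KO and 146.0 ± 6.34 CPM in WT (adjusted p = 0.146).

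Markers of the cells that carry the receptors were read in the same way, and none of the marker genes in the table was at 0. The listed blood marker Hbb-b1 was not found there. The 6 general neuron markers summed to between 5232 and 5723 CPM in KO and between 5069 and 5504 CPM in WT, and 0 of 6 passed. The neurofilament gene Nefl was at 651.7 ± 9.05 CPM in KO and 593.1 ± 24.7 CPM in WT (adjusted p = 0.0815) and passed by DESeq2, and the synaptic gene Snap25 had a log2 fold change of 0.09 (SE 0.04, adjusted p = 0.323). The 6 markers of forebrain excitatory neurons summed to between 2968 and 3265 CPM in KO and between 2854 and 3275 CPM in WT. Of these, the cortical transcription factor Emx1 rose, with a log2 fold change of 0.51 (SE 0.09, adjusted p = 0.00337), and 5 did not pass, among them the glutamate transporter Slc17a7 at 0.11 (SE 0.04, adjusted p = 0.26). The 6 markers of inhibitory neurons summed to between 1354 and 1509 CPM in KO and between 1246 and 1384 CPM in WT, with the neuropeptide gene Npy higher at a log2 fold change of 0.29 (SE 0.06, adjusted p = 0.0118) and 5 not past the threshold. Npy missed it without KO replicate 3 (adjusted p = 0.0665). Slc32a1, the vesicular transporter of GABA, was at 0.11 (SE 0.04, adjusted p = 0.241). Cerebellar markers summed to between 862.5 and 1129 CPM in KO and between 1006 and 1273 CPM in WT, with 0 of 6 past the threshold, Zic1 at a log2 fold change of -0.18 (SE 0.08) and Calb1 at -0.08 (SE 0.07).

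The markers of other cells gave 0 of 4 past the threshold for oligodendrocyte precursors, 0 of 6 for astrocytes, 0 of 5 for microglia, 0 of 4 for vessels and 0 of 3 for blood by edgeR. DESeq2 called 1 of them, the astrocyte gene Slc1a3, at a log2 fold change of -0.13 (SE 0.03) by edgeR. At an unadjusted p under 0.05, 2 general neuron, 2 excitatory and 3 inhibitory markers were higher in the libraries labelled KO and 0 of these lists' markers lower, while 3 oligodendrocyte, 3 astrocyte, 2 microglial and 3 vessel markers were lower and 0 higher. In the cerebellar, precursor and blood lists 0 were higher and 0 lower. Log2 fold changes were above 0 in 6 of 6 general neuron, 5 of 6 excitatory and 6 of 6 inhibitory markers, but in 1 of 6 cerebellar markers. Among the other cells they were above 0 in 0 of 10 oligodendrocyte, 1 of 6 astrocyte, 1 of 5 microglial and 0 of 4 vessel markers. For precursors 3 of 4 were above 0, and for blood 2 of 3. The part of these shifts in the differences of the receptor and LINGO genes was not tested. The summed astrocyte markers ran from 4021 to 4333 CPM in KO and from 4236 to 4397 CPM in WT, and those of vessels from 103.0 to 115.4 CPM in KO and from 112.7 to 128.1 CPM in WT. Microglial markers summed to 212.8 to 223.2 CPM in KO and 222.4 to 242.0 CPM in WT, those of precursors to 225.8 to 237.3 CPM in KO and 215.8 to 240.8 CPM in WT, and those of blood to 17.1 to 26.7 CPM in KO and 17.0 to 26.6 CPM in WT. The log2 fold changes of lowest p were -0.15 for Gja1 in astrocytes, -0.26 for P2ry12 and -0.11 for Csf1r in microglia, and -0.23 for Tek and -0.15 for Flt1 in vessels. They were -0.09 for Pdgfra and 0.13 for Olig2 in precursors, and -0.13 for Alas2 and 0.11 for Hbb-bt in blood.

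Genes whose level followed that of a member within the groups were ranked by Pearson's r of the deviations of log2 CPM from the group mean, over 8 libraries. The 3 nearest were Cntnap1, Foxo6 and Dnajb5 for Rtn4r, Ecm1, Efna3 and Nynrin for Rtn4rl1, Sike1, Aamdc and Sdhc for Rtn4rl2, and Pamr1, Vps53 and Uxs1 for Lingo1. They included Rpa1 and Herpud1 for Lingo3 and were Gng2, Ppp1r9a and Trip12 for Lingo2, and Asic4, Adprhl2 and Dpcd for Mag. For Rtn4 they were Gnaq, Sms and Glrb, for Omg Slitrk5, Cdk17 and Gpm6a, and for Lingo4 Prdx1, Tspan12 and Vps25. The r values of the genes named ran from 0.952 to 0.994, are given as a description over libraries that share their depth and preparation, and were ranked over all tested genes with a mean of at least 5 CPM. Ranked by Spearman's rho instead, none of the 3 nearest genes was kept for 8 of the 10 members.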

How the data were processed

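Polyadenylated RNA of mouse brain was sequenced in 4 libraries labelled KO and 4 labelled WT. Per the labels' protocols, Trizol and RNeasy columns gave the RNA, and the library kit was a stranded one for mRNA. The authors deposited an estimated count (expected count) per gene, not scaled between libraries. Of these values, 91.5% were whole within 0.001. GRCm38 (mm10), edgeR and TopHat2 2.0.9 are listed, without roles, in the submitters' processing notes. What counted the reads, with which annotation and strand, is not given in the sources used here.

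Expected counts were rounded and filtered with edgeR's filterByExpr, with TMM factors for the library sizes. The comparison used the robust quasi-likelihood test of edgeR 4.0.16 in R 4.3.3, and p-values were adjusted by Benjamini-Hochberg over the 15902 genes tested, with a threshold of 0.05. Fold changes are KO over WT on the log2 scale, and CPM use the scaled library sizes. Levels per kilobase use the longest protein-coding transcript of GENCODE M21, where 98.1% of the genes of the table were found. All 8 libraries were kept. Within groups they were further apart than sampling alone gives (chi-square per degree of freedom 2.43 to 4.91). That spread does not show whether each library came from its own animal. The fit was tested on simulated data.

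Members and lists were chosen with earlier results of these data known. Named genes are the members, Uhrf2, those past the threshold and the 2 of lowest p in each pathway and marker list, and the 3 nearest genes of each member with a mean of at least 5 CPM. A few results under this rule are not reported here. Alternatives were other scalings and filters, DESeq2 1.42.0, limma-voom (limma 3.58.1), a replicate block, removal of GC content and length trends (mgcv 1.9.3) and leaving out libraries. Leaving out both libraries numbered 1 was added after the data were seen, because their correlation was the highest of the 4 numbers.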

Additional observations from a re-analysis of the deposited data

Results flagged for a closer look

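Of 92 groups of 4 libraries examined, 4 held a library far from the other 3, where chance flags about 1 in 20. Omg in KO replicate 2 was at 100.4 CPM, with the other KO libraries between 107.4 and 108.4 CPM. Uhrf2 in WT replicate 2 was at 47.7 CPM, with the other WT libraries between 57.2 and 58.9 CPM. Ngfr in KO replicate 3 was at 6.03 CPM, with the other KO libraries between 8.28 and 8.60 CPM. Nefl in WT replicate 4 was at 630.0 CPM, with the other WT libraries between 578.6 and 583.9 CPM.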

How the results depend on the processing

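The 4 members past the threshold were the same in all 19 alternatives, and no member's log2 fold change moved by more than the spread between its libraries. The number of all genes past the threshold was 228, and between 110 and 324 without 1 library, the furthest being 110 (WT replicate 3 left out), 130 (KO replicate 3) and 146 (KO replicate 4). The number of pathway genes past it was 3, and between 0 and 3 without 1 library, with 0 without WT replicate 3 and 1 without KO replicate 3 or WT replicate 1. Without both libraries numbered 1 it was 1. With the replicate number as a block, 495 genes and 6 pathway genes passed, and 538 genes with GC content and length trends removed as well. Libraries with the same number did not deviate together in every pair (correlations of 0.208, 0.077, 0.024 and 0.067 for numbers 1 to 4), so the number was not taken as a pairing, and 2 of the 4 KO libraries correlated best with the WT library of their own number. The causes were not tested. Of single genes and levels, 17 values lost and 17 gained a call and 19 moved, those that moved being levels of genes with transcripts of unequal length and rankings of nearest genes. No value past the threshold changed sign. Among those not past it, the log2 fold changes of Mag, Lingo4, Alas2 and Hbb-bt changed sign under some alternatives and passed under none. The Uhrf2 ratio was 1.59 on plain library totals. Depth limits Lingo4 most, at under 5 CPM.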
